A study of Mus musculus with 8 samples.

Results

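The genes described here bring iron into the cell, store it, export it, release it from heme or sense it, and were followed in mouse leukemic cells treated with IOX5 or with its vehicle DMSO. They were chosen by gene symbol and are 10 of the 54838 genes listed in the count files. *Tfrc*, *Slc11a1* and *Slc11a2* stand for uptake, *Fth1* and *Ftl1* for storage, *Slc40a1* for export, *Hmox1* for release from heme, and *Ireb2*, *Aco1* and *Fbxl5* for sensing. All 10 passed the filter on low counts.

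The data comprised RNA-seq counts of 8 *iMLL-AF9* samples, with replicates 1 to 4 of DMSO and replicates 1 to 4 of IOX5. Cells of both groups carry a doxycycline-inducible *MLL-AF9* allele, are otherwise labelled wild type and are labelled as bone marrow leukaemic stem cells, while the description of the series calls them preleukaemic. IOX5 is a selective inhibitor of the HIF prolyl hydroxylases (PHDs). Its dose and the time of treatment, and whether the samples came from separate cultures or animals, are not stated for these samples, so that p-values measure the spread between these samples. The depth on genes was 12343770 to 14116054 reads per DMSO sample and 11351507 to 12708888 reads per IOX5 sample. The progenitor genes *Kit*, *Hoxa9*, *Meis1* and *Myb* were expressed, with mean levels in DMSO of 74.7, 250, 104 and 331 CPM (normalized read counts, scaled to a common library size) respectively. The other progenitor markers listed, *Cd34*, *Ptprc* and *Flt3*, had means in DMSO of 83.8, 449 and 1.40 CPM, so that *Flt3* was low.

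Iron enters most cells as transferrin-bound iron through the transferrin receptor, is stored in a ferritin shell of heavy and light chains, and leaves through ferroportin. The iron regulatory proteins encoded by *Aco1* and *Ireb2* bind a short RNA hairpin, the iron-responsive element (IRE), when iron is scarce. Bound in a 5′ UTR the element blocks translation, and bound in the 3′ UTR of the transferrin receptor mRNA it protects the mRNA from decay. Read counts measure the amount of mRNA and not its translation.

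The hairpins are shown because the pattern searched divides the members by whether they hold it before the coding sequence, after it or nowhere. The GENCODE M21 transcripts were searched on the sense strand for a C, 5 stem bases, the loop CAGNGN and 5 bases that pair with the stem, with G-U pairs allowed. Capitals mark the loop, positions are in GRCm38, and each sequence reads 5′ to 3′ as DNA.
*Fth1*, 5′ UTR, chr19:9982732-9982760, plus strand: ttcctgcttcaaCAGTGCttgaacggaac
*Ftl1*, 5′ UTR, chr7:45459779-45459807, minus strand: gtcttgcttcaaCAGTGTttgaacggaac
*Slc40a1*, 5′ UTR, chr1:45925465-45925493, minus strand: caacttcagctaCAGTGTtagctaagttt
*Tfrc*, 3′ UTR, chr16:32631160-32631188, plus strand: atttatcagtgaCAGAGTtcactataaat
*Tfrc*, 3′ UTR, chr16:32631219-32631247, plus strand: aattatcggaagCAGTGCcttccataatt
*Tfrc*, 3′ UTR, chr16:32631598-32631626, plus strand: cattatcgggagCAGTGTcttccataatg
*Tfrc*, 3′ UTR, chr16:32631663-32631691, plus strand: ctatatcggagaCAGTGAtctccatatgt
*Tfrc*, 3′ UTR, chr16:32631710-32631738, plus strand: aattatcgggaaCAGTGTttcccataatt

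Thus 3 members held the pattern in the 5′ UTR and 1 held it, 5 times, in the 3′ UTR. Among all genes with such regions, the pattern occurred in the 5′ UTR of 134 of 20916 genes (0.641%) and in the 3′ UTR of 363 of 21045 (1.72%). The pattern did not occur in the UTRs of the other 6 members. The search took only a fully paired stem with this loop. These members, *Slc11a2* among them, are thus not shown to lack an element. A match describes the sequence and does not show that a protein binds there. Matches lay in 4 of 5 annotated coding transcripts of *Fth1*, 1 of 2 of *Ftl1*, 1 of 4 of *Slc40a1* and 1 of 3 of *Tfrc*. *Slc11a2* has several annotated transcripts too. Gene counts do not tell the transcripts of a gene apart, so they do not measure only mRNA that holds the pattern.

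To compare levels between genes, CPM were divided by the length of the principal transcript in kilobases. In DMSO, the ferritin light chain *Ftl1* had the highest level at 1527 ± 192 CPM per kb (SD, n = 4), followed by the heavy chain *Fth1* at 575 ± 55.0. *Tfrc* followed at 157 ± 24.0 CPM per kb and *Fbxl5* at 59.4 ± 20.2. With these lengths the ranges of these 4 genes did not overlap. For *Fth1* the transcript taken has 1494 bases, 795 of them 5′ UTR, and a shorter one would give a higher level per kb.

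*Hmox1* at 34.7 ± 5.43 CPM per kb and *Ireb2* at 31.0 ± 1.76 overlapped each other, and the lowest *Fbxl5* sample (38.3) lay within the range of *Hmox1*. *Aco1* came next at 17.6 ± 0.963 CPM per kb, then *Slc11a2* at 12.5 ± 1.57. The lowest levels were those of *Slc11a1* at 3.50 ± 1.65 CPM per kb and of *Slc40a1* at 1.58 ± 0.770, and the ranges of these last genes overlapped. In IOX5, the mean of *Hmox1* (87.6 ± 23.6 CPM per kb) stood above that of *Fbxl5* (56.7 ± 31.0), with overlapping ranges.

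**Figure D1:**
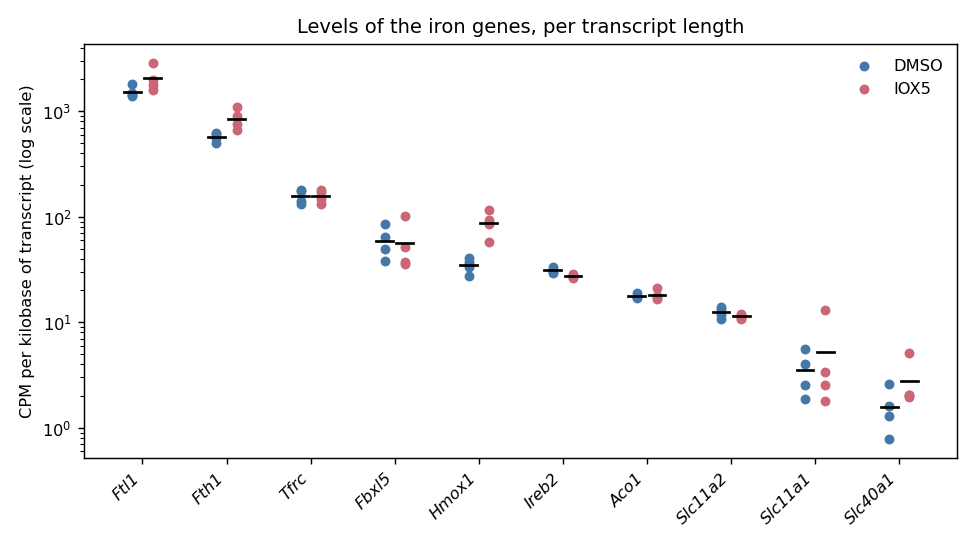
Levels of the 10 iron genes in CPM per kilobase of the principal transcript, on a log axis, with a point for each of the 4 DMSO and 4 IOX5 samples and a line at each group mean. The ferritin chains lie highest and *Slc11a1* and *Slc40a1* lowest, and the *Hmox1* points of IOX5 all lie above those of DMSO.

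The question of the comparison was which of these genes changed with PHD inhibition. Without a block for the replicate number, *Hmox1* alone rose (adjusted p under 0.05, edgeR's quasi-likelihood test with Benjamini-Hochberg adjustment over 12405 genes) and no member fell, while 0.774% of all genes tested rose and 1.25% fell. With upper-quartile factors, 101 genes rose and 108 fell, against 96 and 155 with TMM factors.

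Samples with the same number deviated together, and with the number as a block 4 members rose (*Hmox1*, *Fth1*, *Ftl1* and *Slc40a1*) and 1 fell (*Ireb2*). With the block 11.2% of all genes rose and 9.43% fell. The groups did not overlap for 2 members that were higher and 1 that was lower with IOX5, against 5.98% and 8.30% of all genes. The median log2 fold change was 0.24 over the 10 members and 0.02 over all genes, and without IOX5 replicate 2 that of the members was 0.02.

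**Figure D2:**
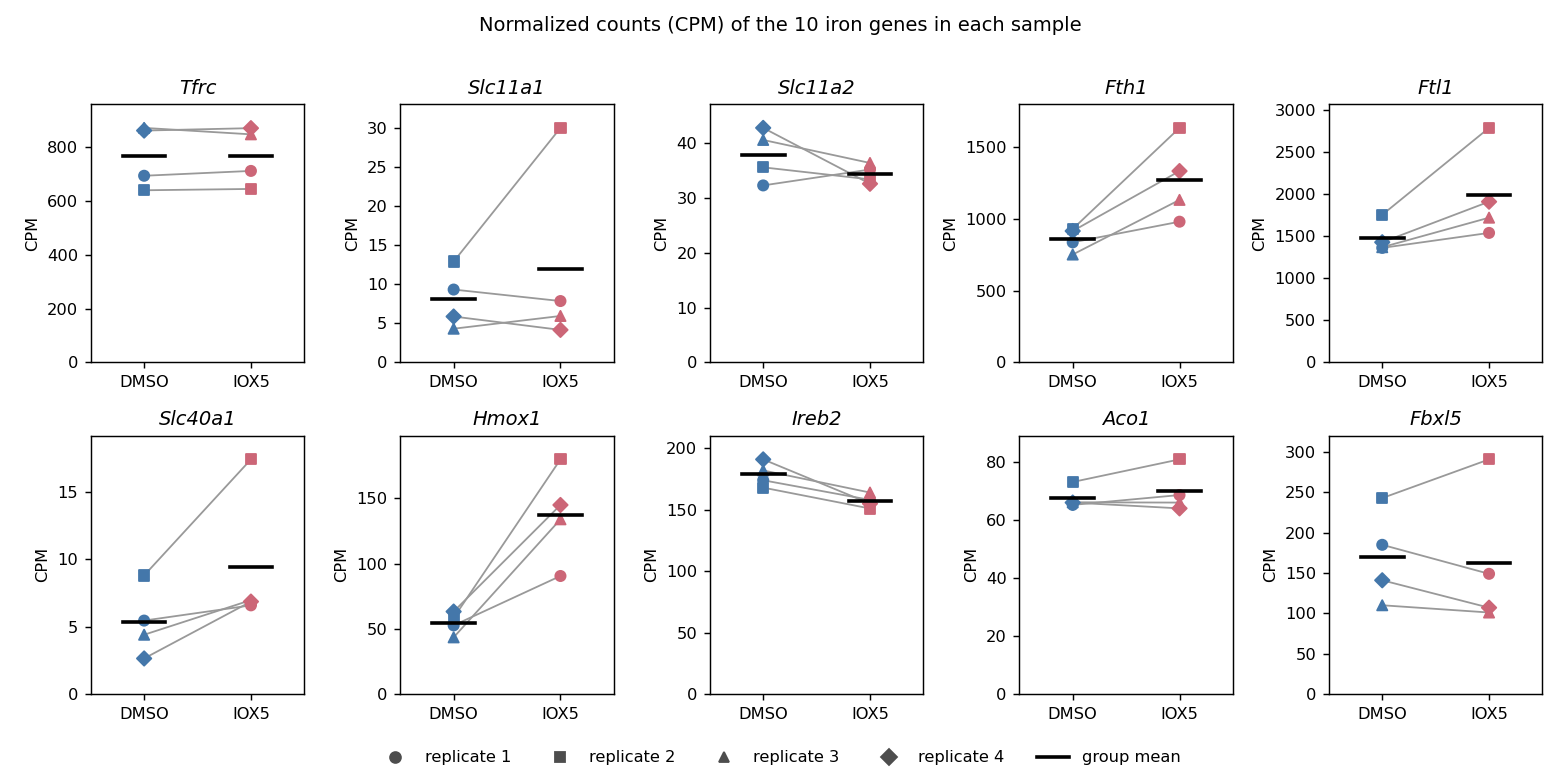
Normalized counts (CPM) of each iron gene, with DMSO and IOX5 samples of the same number joined by a line, a marker shape for each number and a bar at each group mean. *Hmox1*, *Fth1*, *Ftl1* and *Slc40a1* go up and *Ireb2* goes down in all 4 pairs, and the lines of *Tfrc* are almost flat.

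*Hmox1* (heme oxygenase 1, chr8:75093621-75100589, plus strand) opens the heme ring and sets its iron free. Its counts were 52.6, 58.4, 43.4 and 63.2 CPM in DMSO replicates 1 to 4. They were 90.5, 180, 134 and 145 CPM in IOX5 replicates 1 to 4. Every IOX5 sample lay above every DMSO sample, and replicate 1 of IOX5 was the lowest of its group.

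*Hmox1* rose 2.53-fold, a log2 fold change of 1.34 (SE 0.201, adjusted p = 0.0254, edgeR). With the block the log2 fold change was 1.31 (SE 0.114, adjusted p = 2.48e-05, edgeR). It ranked 45 of 12405 genes by p. The call without the block was lost when DMSO replicate 1 (adjusted p = 0.0689), 2 (0.0686), 3 (0.0892) or 4 (0.0902) or IOX5 replicate 3 (0.0708) was left out of the edgeR fit, while the log2 fold change stayed above 1 in all 8 such fits. *Hmox1* and *Fth1* also stand in the study's source tables of genes higher with IOX5, made from these samples, so those tables are no independent evidence of their direction.

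*Fth1* (ferritin heavy chain, chr19:9980598-9985098, plus strand) carries the ferroxidase that turns iron into its stored form. Its counts were 837, 930, 752 and 916 CPM in DMSO. They were 981, 1635, 1133 and 1334 CPM in IOX5. The groups did not overlap, and the gap between the highest DMSO and the lowest IOX5 sample was small.

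The log2 fold change of *Fth1* was 0.57 (SE 0.150), which missed the threshold without the block (adjusted p = 0.0839, edgeR) and passed it with the block (0.54, SE 0.0848, adjusted p = 9.36e-04, edgeR). DESeq2 without a block gave an adjusted p of 0.00464 and limma voom one of 0.0460. Of 8 other settings without the block, only these 2 called *Fth1* (highest adjusted p 0.0927, edgeR). With single samples left out it was called in 0 of 8 fits (adjusted p between 0.0701 and 0.209, edgeR).

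*Ftl1* (ferritin light chain, chr7:45457944-45459884, minus strand) forms the ferritin shell with *Fth1*. Its counts were 1361, 1754, 1369 and 1428 CPM in DMSO. They were 1539, 2787, 1720 and 1910 CPM in IOX5. The groups overlapped because DMSO replicate 2 was high, while IOX5 was higher than DMSO in 4 of 4 pairs.

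*Ftl1* had a log2 fold change of 0.43 (SE 0.178, adjusted p = 0.223, edgeR) without the block, and it rose with the block (0.40, SE 0.0803, adjusted p = 0.00426, edgeR). Without IOX5 replicate 2 and without the block it was 0.22. Genes with sequence like that of the ferritin mRNAs held few reads, 48 for *Fth1* (0.0455% of its own) and 751 for *Ftl1* (0.437%). Reads that aligned at several places went to no gene (9.32 to 9.51% of reads in DMSO, 9.15 to 10% in IOX5). How many of them came from the ferritins is not known. Few reads on the copies thus do not show that no ferritin reads were lost. Within each sample the log2 ratio of *Fth1* to *Ftl1* counts was -0.78 ± 0.130 in DMSO and -0.63 ± 0.105 in IOX5 (SD, n = 4), higher with IOX5 in 4 of 4 pairs.

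*Slc40a1* (ferroportin, chr1:45908068-45926523, minus strand) is the iron exporter of the cell membrane. Its counts were low, at 5.44, 8.79, 4.39 and 2.63 CPM in DMSO. They were 6.57, 17.4, 6.96 and 6.85 CPM in IOX5. IOX5 replicate 2 stood far above the other 3 samples of its group, the groups overlapped, and IOX5 was higher in 4 of 4 pairs.

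*Slc40a1* had a log2 fold change of 0.83 (SE 0.432, adjusted p = 0.325, edgeR) without the block and rose with it (0.81, SE 0.165, adjusted p = 0.00456, edgeR). Without IOX5 replicate 2 and without the block it was 0.35, and without number 2 in both groups and with the block it was 0.72 (adjusted p = 0.00759, edgeR).

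Macrophages, which recycle iron from red cells, express *Slc40a1*, *Slc11a1* and *Hmox1* strongly. The sum of their markers, though not every marker, was higher with IOX5. The summed level of 16 macrophage markers was 151 to 213 CPM in DMSO and 232 to 535 CPM in IOX5, with 535 in IOX5 replicate 2. Of these markers 8 were tested, 0 passed without the block (3 had an unadjusted p under 0.05, edgeR) and 4 rose with it (*Adgre1*, *Mrc1*, *Siglec1* and *Mertk*). *Timd4*, *Vsig4* and *Clec4f* had no read in any sample, and *C1qa*, *Vcam1*, *Spic*, *Marco* and *Cd5l* were too low to be tested. The part of the macrophage markers in the values of *Slc40a1*, *Slc11a1* and *Hmox1* was not tested, and in such bulk samples more cells of a type and more RNA per cell cannot be told apart.

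Erythroid markers, which mark cells with a high demand for iron, summed to 10.9 to 43.8 CPM in DMSO and 18.0 to 67.3 CPM in IOX5. None of the 8 tested passed without the block (0 had an unadjusted p under 0.05, edgeR) and 4 rose with it. Granulocyte markers summed to 4878 to 7761 CPM in DMSO and 5536 to 8749 CPM in IOX5, and 9 of 13 rose with the block. Mast cell and basophil markers summed to 188 to 725 CPM in DMSO and 330 to 1138 CPM in IOX5, and 8 of 8 rose with the block. Progenitor markers summed to 1228 to 1399 CPM in DMSO and 1369 to 1537 CPM in IOX5, and 4 of 7 rose with the block. These counts stand beside 11.2% of all genes that rose with the block. No marker of the last 3 lists passed without the block (1, 0 and 1 had an unadjusted p under 0.05, edgeR), and the part of these lists in the values of the members was not tested.

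*Tfrc* (transferrin receptor, chr16:32608920-32632794, plus strand) takes up transferrin-bound iron. Its counts were 694, 640, 872 and 862 CPM in DMSO. They were 712, 645, 848 and 871 CPM in IOX5. Each IOX5 sample lay close to the DMSO sample of its own number, with numbers 3 and 4 above 1 and 2 in both groups. Numbers 3 and 4 were not told apart, as IOX5 replicate 3 lay nearest DMSO replicate 4 and IOX5 replicate 4 nearest DMSO replicate 3.

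The log2 fold change of *Tfrc* was 0.00 (SE 0.132, adjusted p = 0.993, edgeR) without the block and 0.01 (SE 0.0625, adjusted p = 0.964, edgeR) with it. The differences within pairs ran from -0.04 to 0.04 on the log2 CPM scale, and 99.4% of the variation of log2 CPM lay with the number.

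The start of *Tfrc* is shown because ACGTG, a form of the core bound by HIF, occurred there. In RefSeq promoter windows of GRCm38.p6 (300 bases around each start, both strands searched), ACGTG occurred in 19.6% of 32851 windows, and TGACNNNGC, the core bound by NRF2 and its partners, in 12.4%. Capitals mark ACGTG in the stretch below, which both *Tfrc* windows share.
*Tfrc*, chr16:32608879-32608908, plus strand: cacctcggtaggtgtACGTGcggaaggaag
Neither set of letters occurred in the windows of *Slc11a1*, *Fth1*, *Ftl1*, *Ireb2* and *Aco1*. Other forms of these cores, and sequence outside the windows, were not searched. *Slc11a2*, *Slc40a1*, *Hmox1* and *Fbxl5* were not searched.

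*Slc11a1* (NRAMP1, chr1:74375195-74386062, plus strand) moves metal ions out of the phagosome. Its counts were 9.32, 12.9, 4.31 and 5.87 CPM in DMSO. They were 7.85, 30.0, 5.94 and 4.16 CPM in IOX5. IOX5 replicate 2 was the highest by far, and the other 3 IOX5 samples lay within the range of DMSO or just below it.

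*Slc11a1* had a log2 fold change of 0.56 (SE 0.621, adjusted p = 0.657, edgeR) without the block and 0.35 (SE 0.224, adjusted p = 0.282, edgeR) with it, and -0.44 without IOX5 replicate 2.

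*Slc11a2* (DMT1, chr15:100387898-100425072, minus strand) carries ferrous iron across the endosomal membrane. Its counts were 32.3, 35.6, 40.6 and 42.8 CPM in DMSO. They were 35.2, 33.4, 36.4 and 32.6 CPM in IOX5. The groups overlapped, and IOX5 was higher in 1 of 4 pairs. The log2 fold change was -0.14 (SE 0.0986, adjusted p = 0.477, edgeR).

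*Ireb2* (iron regulatory protein 2, chr9:54863789-54912530, plus strand) binds the elements shown above. Its counts were 174, 168, 182 and 191 CPM in DMSO. They were 158, 151, 164 and 155 CPM in IOX5. Every IOX5 sample lay below every DMSO sample, by a small margin.

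*Ireb2* had a log2 fold change of -0.19 (SE 0.0595, adjusted p = 0.124, edgeR) without the block and fell with it, close to the threshold (-0.19, SE 0.0632, adjusted p = 0.0486, edgeR). When numbers 1, 2, 3 and 4 were left out in turn with the block, the adjusted p was 0.108, 0.0459, 0.164 and 0.129 (edgeR). DESeq2 with the block did not call *Ireb2* (adjusted p = 0.0948).

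*Aco1* (iron regulatory protein 1, chr4:40143081-40198338, plus strand) is the other protein that binds the elements and, with an iron-sulfur cluster, works as an aconitase. Its counts were 65.2, 73.1, 66.1 and 66.0 CPM in DMSO. They were 68.6, 80.9, 66.0 and 64.0 CPM in IOX5. The groups overlapped, and number 2 was the highest in both. The log2 fold change was 0.05 (SE 0.0838, adjusted p = 0.791, edgeR). The log2 ratio of *Ireb2* to *Aco1* counts was 1.40 ± 0.145 in DMSO and 1.17 ± 0.185 in IOX5 (SD, n = 4), lower with IOX5 in 4 of 4 pairs.

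*Fbxl5* (chr5:43744615-43821638, minus strand) is the iron-binding subunit of the ligase that marks iron regulatory protein 2 for decay. Its counts were 185, 243, 110 and 141 CPM in DMSO. They were 149, 291, 101 and 107 CPM in IOX5. The numbers kept the same order in both groups, with 2 the highest and 3 the lowest.

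The log2 fold change of *Fbxl5* was -0.07 (SE 0.364, adjusted p = 0.939, edgeR) without the block and -0.14 (SE 0.0921, adjusted p = 0.306, edgeR) with it. Without number 2 and with the block *Fbxl5* fell (-0.28, adjusted p = 0.00777, edgeR). *Fbxl5* shares 98 exonic bases with *Bst1* on the opposite strand, and the strand setting of the counting is not stated, so reads of the shared stretch could belong to either gene.

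**Figure D3:**
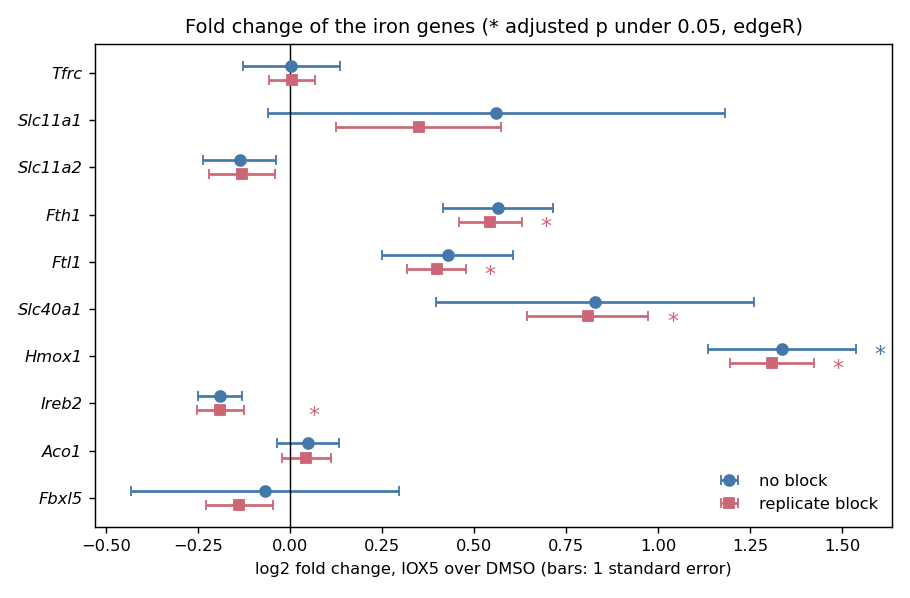
Log2 fold changes of IOX5 over DMSO for each iron gene, with bars of 1 standard error, from edgeR without a block (circles) and with the replicate number as a block (squares). A star marks an adjusted p under 0.05, which 1 gene has without the block and 5 have with it.

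The members differed in where their variation lay. The replicate number has more levels than the treatment, so it takes a larger share even without an effect, and the shares do not compare directly. The replicate number held over 50% of the variation of log2 CPM in 6 members, from 53.7% in *Ftl1* to 99.4% in *Tfrc*. The treatment held most of it in 3 members, with 83.4% in *Hmox1*, 72.4% in *Ireb2* and 62.1% in *Fth1*. In *Slc11a2*, 44.4% lay with neither.

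**Figure D4:**
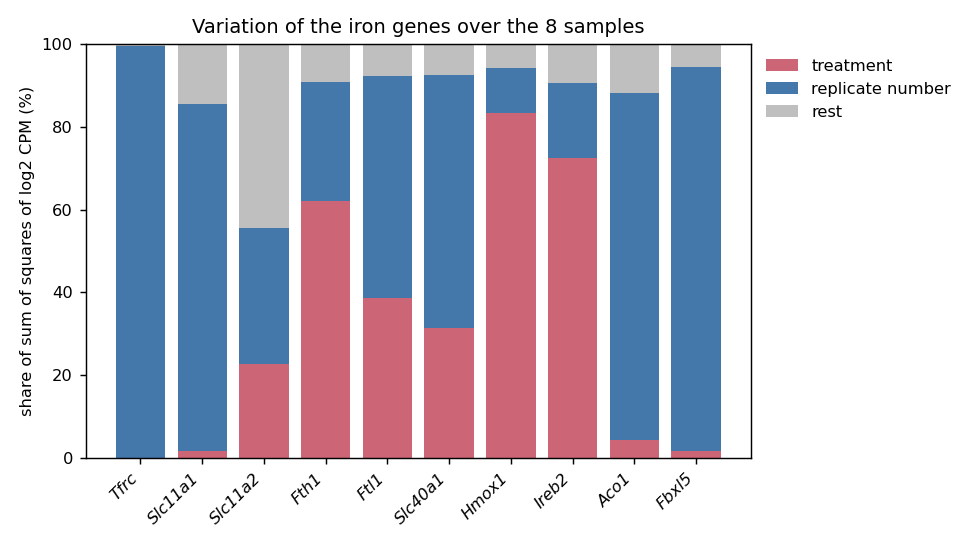
Share of the sum of squares of log2 CPM over the 8 samples that lay with treatment, with the replicate number and with the rest, as stacked bars for each iron gene. *Hmox1*, *Ireb2* and *Fth1* are mostly treatment, and *Tfrc* is almost wholly number.

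Storage and uptake were also set against each other within each sample. The log2 ratio of *Tfrc* to *Fth1* counts was -0.27, -0.54, 0.21 and -0.09 in DMSO replicates 1 to 4. It was -0.46, -1.34, -0.42 and -0.62 in IOX5. The mean was -0.17 ± 0.316 in DMSO and -0.71 ± 0.430 in IOX5 (SD, n = 4), and the groups overlapped because DMSO replicate 2 was as low as some IOX5 samples. Within pairs the ratio was lower with IOX5 in 4 of 4, by -0.19, -0.80, -0.63 and -0.53 for numbers 1 to 4. Since *Tfrc* differed by only -0.04 to 0.04 within pairs, the ratio restates the rise of *Fth1* and is no separate result.

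Over the 8 samples, log2 CPM of *Hmox1* had a Pearson r of 0.958 with *Fth1*, 0.822 with *Ftl1* and -0.817 with *Ireb2*. With the group means taken out, the same r were 0.949, 0.796 and -0.186. *Fbxl5* and *Tfrc* had an r of -0.922. These values describe 8 samples that share their pairing and 2 treatments. The 5 genes most like *Hmox1* over the 8 samples among 12404 compared were *Hsd17b4* (r = 0.983), *Esd* (0.982), *Nub1* (0.973), *Blcap* (0.973) and *Glipr1* (0.970).

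Other genes of iron handling were described by a list of 78 genes, of which 63 were tested. Without the block 0 rose (12 of the list had an unadjusted p under 0.05, edgeR) and 1 fell, and the median log2 fold change was 0.01. With the block 6 rose (9.52%) and 5 fell (7.94%), shares below the 11.2% and 9.43% of all genes.

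Among storage genes and iron chaperones, *Pcbp2*, which delivers iron to ferritin, fell without the block from a mean of 475 CPM (457 to 506 in 4 samples) to one of 389 CPM (373 to 398 in 4 samples; log2 fold change -0.29, SE 0.0543, adjusted p = 0.0409, edgeR). Its relative *Pcbp1* went from 422 ± 18.4 to 363 ± 5.30 CPM, with an adjusted p of 0.0626 without and 0.0260 with the block (edgeR). *Ncoa4*, the receptor that takes ferritin to the lysosome, rose with the block (0.27, adjusted p = 0.0254, edgeR), as did the ferritin copy *Ftl1-ps1* (0.69, adjusted p = 0.0159, edgeR), whose reads cannot be told from *Ftl1* with certainty. Without the block, the call of *Pcbp2* held without IOX5 replicate 4 and was lost without any other sample (adjusted p between 0.0579 and 0.133, edgeR).

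Among uptake and reduction genes, *Tfr2*, the second transferrin receptor, rose with the block (0.53, adjusted p = 0.00635, edgeR). The metalloreductase *Steap4* (-1.28, adjusted p = 8.43e-04, edgeR) and the metal importer *Slc39a14* (-0.26, adjusted p = 0.0444, edgeR) fell with it. Without the block the adjusted p of *Tfr2*, *Steap4* and *Slc39a14* was 0.570, 0.388 and 0.546 (edgeR), and the groups overlapped for each. *Steap4* was low, at 1.71 to 12.9 CPM in DMSO and 0.391 to 4.88 CPM in IOX5.

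Among genes of heme transport and breakdown, the heme transporter *Slc48a1* (0.36, adjusted p = 0.00159, edgeR) and the biliverdin reductase *Blvrb* (0.47, adjusted p = 0.0238, edgeR) rose with the block. Of 28 genes of mitochondrial iron and iron-sulfur clusters, the co-chaperone *Hscb* rose with the block (0.35, adjusted p = 0.0457, edgeR). No gene of the export and hepcidin group or of the group that regulates the iron regulatory proteins was called, with 0 and 1 having an unadjusted p under 0.05 (edgeR).

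*Hmox1*, *Fth1*, *Ftl1* and *Slc40a1* are known targets of the repressor BACH1 and the activator NRF2, and 19 other genes of that pathway were described. Without the block 2 rose, the antioxidant enzyme *Srxn1* from 45.6 ± 4.23 to 72.5 ± 7.12 CPM (log2 fold change 0.67, adjusted p = 0.0209, edgeR) and the autophagy receptor *Sqstm1* from 252 ± 15.3 to 341 ± 19.5 CPM (0.44, adjusted p = 0.0254, edgeR). With the block the quinone reductase *Nqo1* (adjusted p = 1.74e-04, edgeR) and the glutathione synthesis subunit *Gclm* (adjusted p = 6.49e-04, edgeR) rose too, and none of the 19 fell. Thus 21.1% of the list rose with the block, beside 11.2% of all genes, while 9.43% of all genes fell. Without the block, 0.774% of all genes rose. Of the log2 fold changes of the list without the block, 15 were above 0 and 4 below. The part of BACH1 and NRF2 in the values of the members was not tested. The median log2 fold change of the list was 0.10, and the log2 fold changes of *Bach1* (0.12, adjusted p = 0.671, edgeR) and of *Nfe2l2*, which encodes NRF2 (-0.09, adjusted p = 0.615, edgeR), did not pass the test. Without the block, both calls were lost when DMSO replicate 1, 2, 3 or 4 or IOX5 replicate 3 was left out (adjusted p between 0.0542 and 0.0959, edgeR), and none of the 19 was then called (0 genes).

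**Figure D5:**
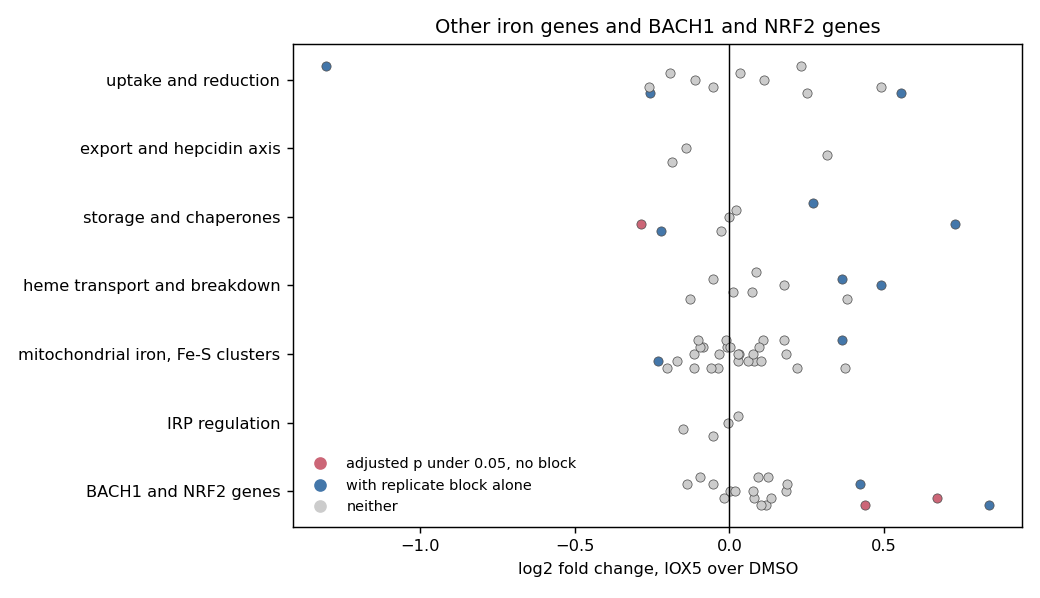
Log2 fold changes of IOX5 over DMSO without a block for other iron genes, by group, and for BACH1 and NRF2 genes, with a point for each gene tested. Red points passed the test without the block (3 genes), blue points with the block alone, and grey points neither.

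All 3 members with the pattern in the 5′ UTR rose with the block. Of the 99 genes tested that hold the pattern there, 15 rose (15.2%) and 9 fell (9.09%) with the block, beside 11.2% and 9.43% of all genes, and their median log2 fold change was 0.00. These 15 include the 3 members, and of the other 96 genes 12 rose (12.5%).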

How the data were processed

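Total RNA of *iMLL-AF9* cells was selected for poly(A) and made into directional libraries by the authors, who trimmed reads with Cutadapt 1.18, mapped them to GRCm38 with HISAT2 2.2.1 and counted them per gene with HTSeq 2.0.1 (versions per the submitters' processing notes). The deposited values are whole read counts per gene and sample, not normalized. The methods name the release of the alignment index, while the release of the annotation used for counting and the strand setting are not given in the sources used here. Identifiers were matched to GENCODE M21 (54809 of 54838). Reads not assigned to a gene (20.6 to 21.5% in DMSO, 20.8 to 22.6% in IOX5) were left out.

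Counts were analysed in R 4.3.3 with edgeR 4.0.16. Genes were kept by filterByExpr (12405), scaled by TMM and compared by the quasi-likelihood test without a block. Genes were called at a Benjamini-Hochberg adjusted p under 0.05. CPM were scaled by TMM, and log2 CPM had a prior count of 2. The replicate number was a block in an alternative, because same-numbered samples shared their deviations from the group means (correlations of 0.758, 0.744, 0.732 and 0.636 for numbers 1 to 4, beside a highest correlation with another number of 0.212, 0.212, 0.685 and 0.685, so that a sample of number 4 correlated more with another number than with its own), which comes from the data, since the labels do not say what the numbers stand for. Other alternatives were DESeq2 1.42.0, limma 3.58.1 (voom, sample weights), upper-quartile or RLE scaling, at least 10 counts in every sample or no filter at all, leaving out samples or numbers, and adding the counts of ferritin copies (by symbol, and by blastn 2.17.0 at 90% identity over 200 bases, the latter chosen after seeing the data). The fits were run on simulated counts with less spread than these data. This checked the recovered fold changes and not the error rate of the calls here.

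Named were all 10 members, every gene of the wider iron list and of the BACH1 and NRF2 list called with or without the block, the 5 genes most correlated with the member of the smallest p, and marker genes beside a result. *Bach1* and *Nfe2l2* were added after their values were seen. The members and lists were chosen with earlier results of these data known. No protein sequences were compared. A called gene of the wider iron list is not reported here by name.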

Additional observations from a re-analysis of the deposited data

Results flagged for a closer look

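In 4 of the 20 groups tested (10 genes, 2 treatments), a sample stood apart from the other 3 by Dixon's criterion, which chance meets in about 1 in 20 groups. All 4 were number 2. These groups are not independent, as they share 8 samples and some of the genes varied together. With the group means taken out, *Slc11a1* had a Pearson r of 0.929 with *Aco1* and 0.839 with *Slc40a1*. A count of 4 in 20 can thus not be set against that rate. In IOX5 replicate 2, *Slc11a1* had 30.0 CPM against 4.16 to 7.85 in the others of its group, and *Slc40a1* had 17.4 CPM against 6.57 to 6.96. In DMSO replicate 2, *Ftl1* had 1754 CPM against 1361 to 1428, and *Aco1* had 73.1 CPM against 65.2 to 66.1.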

How the results depend on the processing

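The count of all genes that rose and fell (96 and 155) was 1394 and 1170 with the replicate block, 489 and 602 with DESeq2, 950 and 777 with DESeq2 and the replicate block, 426 and 610 with limma voom, and 79 and 73 without a filter. It ran from 0 to 130 and from 0 to 333 when single samples were left out, and was 0 and 0 (edgeR) without replicate 3 or 4 of DMSO or replicate 3 of IOX5, where 1969, 1846 and 2111 genes had an unadjusted p under 0.05. With the block and a number left out (1, 2, 3 and 4 in turn), 994, 1119, 642 and 1355 rose and 650, 1016, 403 and 1058 fell. Members that rose (1) were 4 with the replicate block, 2 with DESeq2, 4 with DESeq2 and the block, 2 with limma voom, 0 to 1 with single samples left out and 4 with each number left out under the block. Members that fell (0 in edgeR, with 4 of the 10 members at an unadjusted p under 0.05 in either direction) were 1 with the replicate block and 0 to 2 with a number left out under it. The wider iron list (0 rose, 1 fell) gave 6 and 5 with the replicate block, 2 and 3 with DESeq2, 4 and 4 with DESeq2 and the block, 1 and 3 with limma voom, and no fall without a filter (0). With single samples left out, 0 rose and 0 to 1 fell, and under the block with a number left out 2 to 5 rose and 2 to 5 fell. The median of the members (0.238) ran from 0.0249 to 0.338 with single samples left out and from 0.00688 to 0.247 with a number left out under the block. The cause was not tested.

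Signs changed in 4 members that were not called. *Tfrc* was -0.0515 with limma voom, between -0.0742 and 0.0795 with single samples left out (-0.0417 without DMSO replicate 1, -0.0742 without DMSO replicate 2, -0.0473 without IOX5 replicate 3, -0.0623 without IOX5 replicate 4), and -0.0109 without number 1 under the block. *Slc11a1* ran from -0.436 (without IOX5 replicate 2) to 0.876 and was -0.107 without number 2 under the block. *Aco1* ran from -0.0291 (without IOX5 replicate 2) to 0.0874. *Fbxl5* ran from -0.511 to 0.156 and was 0.156, 0.104 and 0.0854 without DMSO replicate 2, IOX5 replicate 3 and IOX5 replicate 4.

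The block changed the calls of *Fth1*, *Ftl1*, *Slc40a1* and *Ireb2* and of no other member. Under the block with each number left out, *Hmox1*, *Fth1*, *Ftl1* and *Slc40a1* were called each time. At 724 and 987 reads over all 8 samples, *Slc40a1* and *Slc11a1* were measured with the fewest reads.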
